A study of Mus musculus with 8 samples.

Results

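Antimicrobial, protease and protease inhibitor genes of the mouse epidermis were followed here through 8 listed members, *Defb6*, *Defb1*, *Lcn2*, *Cst6*, *Klk7*, *Slpi*, *Wfdc3* and *Psapl1*. The whole series gave values for 19591 genes, and *Slpi* was not among them. The list was drawn up because *Defb6*, *Cst6* and *Lcn2* were far lower in EGFP+ than in EGFP- cells sequenced in bulk, so the members were chosen by their bulk values, which are a description and carry no test. No numerical threshold went with that choice. *Slpi* was not analysed here, and *Lcn2* was not analysed in the single cells of the *Troy*-EGFP mice.

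All mice were adult C57BL/6 animals carrying the *Troy*-EGFP-IRES-CreERT2 knockin, which places EGFP and a tamoxifen-inducible Cre under control of *Troy* (*Tnfrsf19*), so every group, control populations included, shared this allele. Bulk RNA came from 3 sorted populations of each of 2 mice: viable (DAPI-) epidermal cells, ITGA6bright EGFP+ cells and ITGA6bright EGFP- cells, where ITGA6 is an integrin that is bright on basal layer cells. Single cells of the epidermis, EGFP+ and EGFP-, were sequenced from 4 mice of the same line, 1 plate of 384 wells per mouse. A further 2 plates held tdTomato+ and tdTomato- cells of 2 mice that also carried Rosa26-LSL-tdTomato, in which tamoxifen marks *Troy*-expressing cells and their progeny in red. The paper describes these traced mice as homozygous for both alleles and as given tamoxifen before their cells were taken. It also states that the knockin takes the place of the *Troy* coding region. The 2 single-cell experiments thus differed in alleles and treatment. The sort gate of each well was not used here, so the single cells were compared by class and not by EGFP.

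The epidermis defends its surface with secreted peptides and with tightly controlled proteolysis. Beta-defensins such as those made from *Defb6* and *Defb1* are small cationic peptides that damage microbial membranes, and lipocalin 2 (*Lcn2*) withholds iron from bacteria by binding their siderophores. Shedding of the outermost layer depends on proteases, among them the chymotrypsin-like kallikrein KLK7, and on inhibitors that hold them in check. Cystatin M/E (*Cst6*) inhibits legumain and lysosomal cysteine proteases, and *Slpi* and *Wfdc3* encode proteins with the whey acidic protein (WAP) fold found in many serine protease inhibitors. *Psapl1* encodes a relative of prosaposin, the precursor of the saposins that assist lipid breakdown in lysosomes. The upper hair follicle, the part around its opening, is a site where microbes meet the skin.

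The 250 bases before the RefSeq start are shown for *Defb6*, *Klk7* and *Psapl1*, since these genes shared high levels in 1 cell class (given further on) while differing in where else they were found. They are read 5′ to 3′ on the gene's strand, the + strand in each case, in GRCm38.p6: chr8:19225228-19225477 for *Defb6*, chr7:43811044-43811293 for *Klk7* and chr5:36203771-36204020 for *Psapl1*. Capitals mark a match to a searched motif.
Defb6: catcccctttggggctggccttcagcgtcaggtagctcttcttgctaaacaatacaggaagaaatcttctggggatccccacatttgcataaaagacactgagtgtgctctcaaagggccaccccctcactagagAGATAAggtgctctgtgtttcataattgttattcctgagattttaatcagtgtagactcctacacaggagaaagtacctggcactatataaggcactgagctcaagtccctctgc
Klk7: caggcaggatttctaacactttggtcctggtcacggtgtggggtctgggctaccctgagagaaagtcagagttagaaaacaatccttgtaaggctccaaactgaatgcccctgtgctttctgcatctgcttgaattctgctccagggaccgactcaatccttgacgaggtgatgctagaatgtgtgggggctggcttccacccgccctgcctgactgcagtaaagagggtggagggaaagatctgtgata
Psapl1: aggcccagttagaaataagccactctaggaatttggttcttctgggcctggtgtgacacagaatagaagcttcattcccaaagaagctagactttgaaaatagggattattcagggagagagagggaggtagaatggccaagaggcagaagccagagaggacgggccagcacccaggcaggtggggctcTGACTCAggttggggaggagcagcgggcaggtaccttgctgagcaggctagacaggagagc
The AP-1 motif was searched as TGANTCA on both strands. The motif of the GATA factors was searched, again on both strands, as AGATAA. The TATA box was searched on the strand of the gene as TATAAA and is held by 7.59% of promoters. *Defb6* held the GATA letters at bases 115 to 110 before its start, as did 9.99% of 32851 mouse promoters of the same length. *Psapl1* held the AP-1 letters at bases 61 to 55, as did 6.75% of these promoters, and the *Klk7* stretch held none of the 3 motifs. A match is a description of the letters and not evidence of binding. RefSeq places *Defb6* and *Defb1* on chromosome 8, at 19225478 to 19228209 and 21776555 to 21795185, and *Slpi* and *Wfdc3* on chromosome 2, at 164354070 to 164356507 and 164731226 to 164745994. *Lcn2* lies on chromosome 2 at 32384637 to 32387739, *Cst6* on chromosome 19 at 5344705 to 5349574, *Klk7* on chromosome 7 at 43811294 to 43816387 and *Psapl1* on chromosome 5 at 36204021 to 36206568.

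The 6 bulk libraries held 157537 to 453005 counts and the kept wells of a plate a median of 1676 to 3267 transcripts. As a check of the sort, *Tnfrsf19* in CPM, that is, in counts per 1000000 of the library, lay between 67.4 and 102 in EGFP+ cells and between 19 and 31.9 in EGFP- cells. A well was kept when it held at least 1000 transcripts, without spike-ins and mitochondrial genes, which left 680 wells of the *Troy*-EGFP mice (71, 129, 218 and 262 of 384) and 429 of the traced mice (229 and 200). All plates use the same 384 well barcodes by design, so a barcode does not identify a cell across plates. After removal of clusters led by immune markers or by *Mir1950* or *Lipi*, 499 and 401 epidermal wells remained.

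In bulk, both defensin genes were lowest in the EGFP+ libraries of both mice. *Defb6* had 564 and 472 CPM in viable cells of mouse 1 and mouse 2, 76.8 and 101 CPM in EGFP+ cells and 2230 and 845 CPM in EGFP- cells. The 3 populations did not overlap, but the EGFP- value of mouse 1 was far above that of mouse 2. *Defb1*, a constitutively made defensin of epithelia, had 19.7 and 39.7 CPM in viable cells, 17.3 and 25.3 in EGFP+ cells and 108 and 101 in EGFP- cells, with the EGFP+ and viable ranges overlapping. Both EGFP- libraries lay above all others. These values rest on 55 *Defb6* counts and 13 *Defb1* counts in the EGFP+ libraries together. *Lcn2* had 4 and 9 counts in viable cells, 0 and 0 in EGFP+ cells and 7 and 11 in EGFP- cells. With a floor of 3 counts over both EGFP+ libraries, *Lcn2* was at least 11.1-fold lower in EGFP+ than in EGFP- cells.

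The cystatin and the kallikrein were also lowest in EGFP+ cells, but they differed from the defensins in the comparison with viable cells. *Cst6* had 531 and 430 CPM in viable cells, 42.1 and 37.9 CPM in EGFP+ cells and 470 and 324 CPM in EGFP- cells. The viable and EGFP- libraries overlapped and both lay far above EGFP+ cells. *Klk7* had 108 and 57.4 CPM in viable cells, 34.7 and 16.9 in EGFP+ cells and 159 and 42.5 in EGFP- cells. Within each mouse the EGFP+ library was the lowest, though the EGFP- library of mouse 2 held 8 *Klk7* counts only. *Psapl1* had 157 and 172 CPM in viable cells, 59.4 and 71.7 in EGFP+ cells and 88.9 and 287 in EGFP- cells, and its EGFP- libraries lay on either side of the viable ones. *Wfdc3* was found only in viable cells, with 1 and 2 counts, too few for a comparison.

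**Figure D1:**
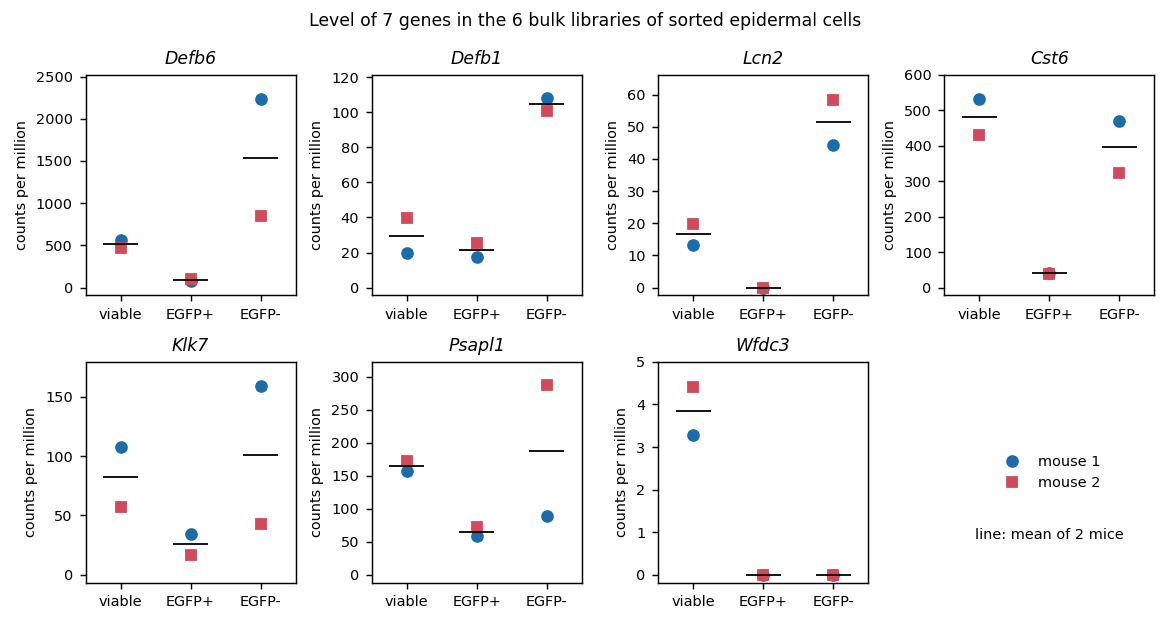
Level of the bulk-measured members in CPM (vertical axes, each with its own scale) in viable, EGFP+ and EGFP- cells. Points are libraries, colored by mouse, and lines mark the mean of both mice. Each of the members with at least 13 counts in viable cells was lowest in EGFP+ cells in its mean over both mice, and *Klk7* and *Psapl1* in EGFP- cells differed most between mice relative to their level.

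On the log2 scale of the edgeR fit, EGFP+ cells differed from EGFP- cells by -4.23 (SE 0.44, n = 2 mice) for *Defb6*, -3.37 (SE 0.373) for *Cst6*, -2.41 (SE 0.481) for *Defb1*, -1.88 (SE 0.589) for *Klk7* and -1.64 (SE 0.415) for *Psapl1*. Of the 8 members 6 had enough counts to enter the fit. Their median was -2.89 beside -0.04 over all 4653 genes in the fit, and nothing is read from it, since the contrast chose the list. Summed over mice and scaled by TMM, which the CPM values above are not, the ratio of EGFP- to EGFP+ cells was 18.1 for *Defb6* (95% counting interval 13.7 to 24.4), 10.2 for *Cst6* (6.64 to 16.1), 5.42 for *Defb1* (2.81 to 11.1), 3.59 for *Klk7* (1.96 to 6.77) and 3.25 for *Psapl1* (2.17 to 4.91). These intervals cover counting error only, and the mice differed by more for *Defb6*, with ratios of 31.9 and 8.56. For *Psapl1* the ratios were 1.64 and 4.11 and for *Klk7* 5.03 and 2.59. Without the EGFP- library of mouse 1, *Klk7* came to -0.62 and *Defb6* to -3.29 on the log2 scale, and without that of mouse 2 *Psapl1* came to -0.54.

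The same libraries set EGFP- against viable cells, by 1.70 (SE 0.374) for *Defb6*, 1.85 (SE 0.432) for *Defb1*, 1.70 (SE 0.692) for *Lcn2*, 0.40 (SE 0.491) for *Klk7*, 0.32 (SE 0.366) for *Psapl1* and -0.16 (SE 0.29) for *Cst6*. The counting interval of the *Cst6* ratio of EGFP- to viable cells, 0.734 to 1.1, included equal levels, while that of *Defb6* was 2.75 to 3.6. By mouse the ratios were 0.968 and 0.809 for *Cst6* and 4.32 and 1.92 for *Defb6*, both of the latter outside its counting interval. In sorted populations a lower share of cells of a type and less RNA per cell cannot be told apart. Markers of other cells moved with the members: 6 of the 7 upper follicle markers had a row, and their summed level was 2810 to 3270 CPM in viable, 621 to 771 in EGFP+ and 2940 to 4020 in EGFP- cells. The 6 Langerhans cell markers summed to 338 to 567, 92.7 to 96.6 and 1120 to 1200 CPM, with *Cd207* and *Csf1r* at 0 in EGFP+ cells. The 8 lower follicle markers summed to 2020 to 2230, 711 to 885 and 1920 to 3930 CPM and the T cell markers, 5 of 6 with a row, to 46.4 to 59, 4.22 to 4.95 and 63.8 to 146 CPM. *Sox9* made up most of the lower follicle sums, with 1520 and 3320 CPM in EGFP- cells, where *Cd34* and *Fgf18* were at 0. The neutrophil markers, 3 of 7 with a row, summed to 37.5 to 128, 24.8 to 33.7 and 127 to 143 CPM, nearly all of it *Cxcr2*. The 6 sebaceous gland markers summed to 208 to 324, 169 to 213 and 298 to 330 CPM and the 5 fibroblast markers to 8.83 to 121, 4.95 to 12.6 and 58.4 to 69.8 CPM. Macrophage markers, 5 of 6 with a row, stayed at or below 11 CPM in every library, and melanocyte markers, 4 of 5, reached 32.8 CPM in viable, 2.48 in EGFP+ and 12.7 in EGFP- cells. The summed markers of the interfollicular epidermis lay the other way, at 19500 to 22100, 24300 to 25100 and 12400 to 14300 CPM for the IFE I list and 2360 to 2820, 2790 to 2800 and 781 to 1160 CPM for the IFE II list. Keratins made up most of these sums, and *Mt2* and *Sbsn* of these lists had log2 differences of EGFP+ from EGFP- cells of -0.74 and -0.67. Their part in the members' differences was not tested.

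Single cells placed most of the members in 1 class. Clusters were named from marker lists, and clustering was done without the members and their relatives. Genes that vary with them stayed in, so the p-values that follow measure the spread between mice and not how the classes were found. In the *Troy*-EGFP mice there were 161 IFE I-like cells (undifferentiated interfollicular epidermis), 113 IFE II-like cells (committed interfollicular epidermis), 112 lower hair follicle (HF)-like, 72 upper HF-like and 41 *Aspn*-led cells. In the traced mice the classes held 46 upper HF-like, 86 *Dct*-led (called by its first gene, whose transcripts came from 1 well), 101 lower HF-like, 127 IFE I-like and 41 IFE II-like cells. Transcripts were summed per mouse and class where at least 10 cells were present, which left out mouse 1 of the *Troy*-EGFP line. That mouse had 2 upper HF-like wells, both without *Defb6* and *Cst6*, and 0 *Defb6* transcripts in 71 wells.

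*Defb6* and *Cst6* were the most abundant members in upper HF-like cells, where transcripts were counted by molecular barcodes at 1 end, so that levels need no scaling by gene length. *Defb6* reached 12600, 14700 and 11700 CPM, here per 1000000 transcripts of the class, in mice 2, 3 and 4 of the *Troy*-EGFP line and 11600 and 15100 in the traced mice. In no other epidermal class did it exceed 1180 CPM. *Cst6* reached 17300, 16500 and 12700 CPM in the *Troy*-EGFP mice and 28700 and 17000 in the traced mice, and its other epidermal classes averaged 33.3 to 142 CPM. Neither gene's upper HF-like values overlapped with those of any other epidermal class in these 5 mice. Against the mean of the lower HF-like class and both IFE-like classes the log2 fold changes were 6.64 (SE 0.447, n = 3 mice) and 7.85 (SE 0.173, n = 2 mice) for *Defb6* and 7.62 (SE 0.471) and 8.44 (SE 0.199) for *Cst6*. They are given as a description, since both genes were already known from these cells to lead this class.

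The other members found in this class were at lower levels. *Klk7* had 1230, 307 and 136 CPM in upper HF-like cells of the *Troy*-EGFP mice and 3910 and 1130 in the traced mice, so mice differed widely. Its log2 fold change against the other classes was 5.00 (SE 0.694) and 6.27 (SE 0.519), higher in 3 of 3 and 2 of 2 mice. *Klk7* entered both fits through its upper HF-like sums alone, as did *Defb1* in the *Troy*-EGFP mice, so these folds are a description with no test. *Defb1* had 587, 107 and 150 CPM in the *Troy*-EGFP mice and 841 and 658 in the traced mice, with log2 fold changes of 4.31 (SE 0.833) and 4.52 (SE 0.409, adjusted p = 1.04e-07, edgeR). *Psapl1* had 231, 1450 and 991 CPM, then 1430 and 1120, with log2 fold changes of 4.22 (SE 0.581) and 5.56 (SE 0.343), again a description, since *Psapl1* too was among the leading genes of this class. The order of the mice differed between genes: mouse 2 of the *Troy*-EGFP line was the highest of its line for *Klk7* and *Defb1* and the lowest for *Psapl1*.

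Of the 8 members 5 entered the fit of the *Troy*-EGFP mice and 6 that of the traced mice, where *Wfdc3*, the sixth, was at 0 in upper HF-like cells. Without the upper HF-like sums 3 and 5 of them would have entered. Over all genes tested, 4.49% of 2382 were called higher and 1.72% lower in the *Troy*-EGFP mice, and 7.52% of 4493 were called higher and 5.81% lower in the traced mice. The fold changes of both experiments were also compared in 1 fit of all 25 sums. The traced fold change minus the *Troy*-EGFP one was 1.29 (SE 0.603) for *Defb6*, 0.91 (SE 0.61) for *Cst6*, 1.33 (SE 1.29) for *Klk7*, 0.30 (SE 1.87) for *Defb1* and 1.38 (SE 0.887) for *Psapl1*. These differences too are a description, and their SEs left room for differences of several fold. Which experiment had the larger fold changes also depended on the clustering. At a resolution of 0.5, 85 *Dct*-led wells joined the upper HF-like class of the traced mice. The traced fold changes, given further on, then lay below the *Troy*-EGFP ones at 0.8 for each of these genes. *Krt79*, an upper follicle marker, was seen in 46 of 46 traced upper HF-like wells and 59 of 72 *Troy*-EGFP ones.

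**Figure D2:**
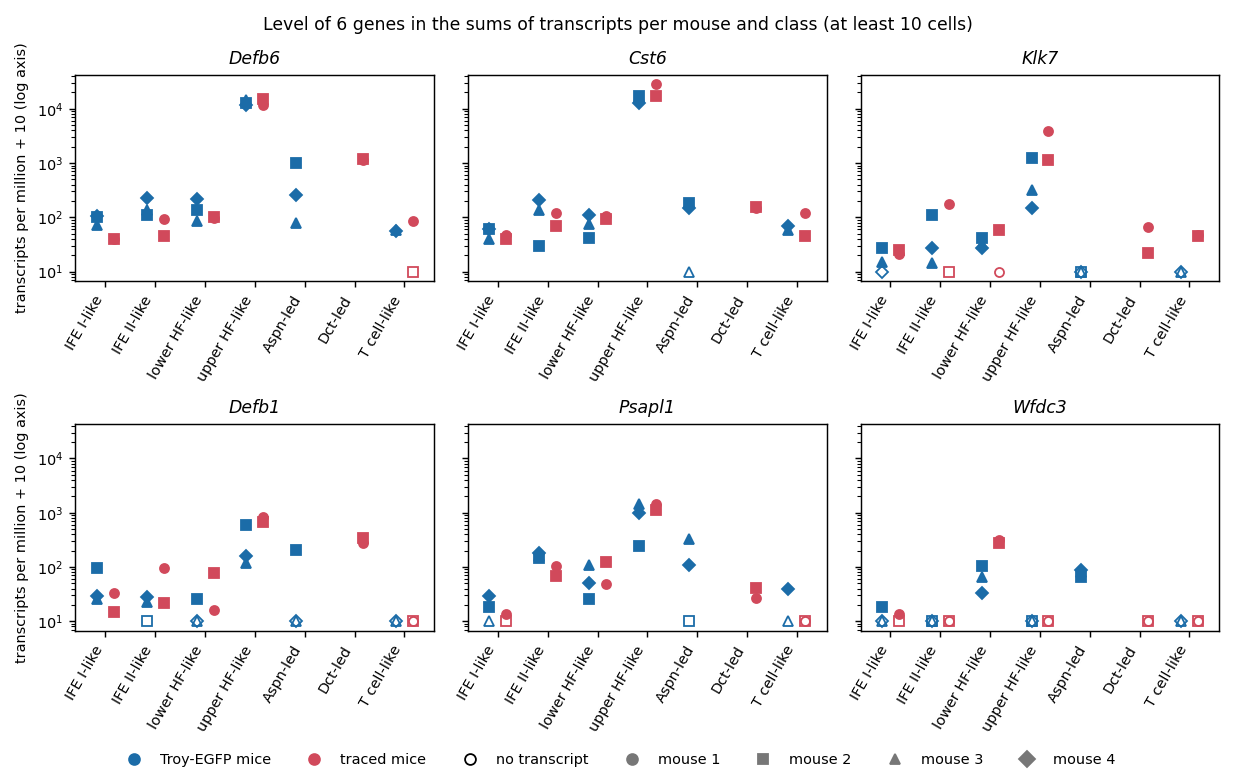
Level of 6 members in each epidermal class, in CPM on a log axis; each symbol is the sum of 1 mouse and class, and the 2 colors are the experiments. *Defb6*, *Cst6*, *Klk7*, *Defb1* and *Psapl1* were highest in upper HF-like cells, and *Wfdc3* was at 0 there in every mouse.

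A small share of the wells held most of the transcripts. Upper HF-like wells were 10.6% to 12.6% of the kept wells in mice 2 to 4 of the *Troy*-EGFP line and held 91.1%, 90.1% and 84.8% of all *Defb6* transcripts and 98.3%, 94.8% and 81.3% of all *Cst6* transcripts. In the traced mice they were 10% and 11.5% of the wells and held 82.6% and 85.3% of *Defb6* and 97.7% and 96.5% of *Cst6*. For *Klk7* the share ranged from 73.1% to 92.2% over these 5 mice, for *Psapl1* from 56.5% to 87.4% and for *Defb1* from 44.4% to 62.3%. *Defb1* had the lowest share of the 5 genes in 4 of 5 mice.

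Within upper HF-like cells *Cst6* was far less even than *Defb6*. Among 72 wells of the *Troy*-EGFP mice the lowest, median and highest *Defb6* values were 0, 18 and 235.6 transcripts, and among 46 wells of the traced mice 0, 55.4 and 125.9. *Cst6* ran from 0 through 1.5 to 672.2 transcripts in the *Troy*-EGFP mice and from 0 through 42.2 to 572.1 in the traced mice. The highest *Cst6* share of a single well was 16.1% of its transcripts. The 5 wells with most transcripts held 61.2% and 51.8% of the *Cst6* of the class in the 2 experiments, against 30.2% and 23.8% for *Defb6* and 65.8% and 69.8% for *Klk7*. At least 1 *Defb6* transcript was seen in 72.2% of wells of the *Troy*-EGFP mice (exact binomial 95% interval 60.4 to 82.1) and 95.7% of the traced mice (85.2 to 99.5), and *Cst6* in 61.1% and 95.7%.

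Free RNA can put transcripts into wells whose cell does not make them, so these shares were set beside T cell-like wells, which should lack a defensin. There *Defb6* was seen in 9.3% of 43 wells (median 1717 transcripts) and 3.57% of 28 wells (median 1893), and upper HF-like wells held a median of 3074 and 3843. With every well thinned to 1000 transcripts, *Defb6* was seen in 63.6% and 93.2% of upper HF-like wells, in 5.97% and 3.29% of T cell-like wells and in 7.8% and 3.51% of IFE I-like wells. The *Defb6* shares of IFE I-like wells were thus close to the background level, and those of upper HF-like wells lay far above it. *Cst6* gave 51% and 87.2% in thinned upper HF-like wells, against 6.38% and 4.13% in T cell-like wells. *Klk7* gave 19.3% and 44%, *Psapl1* 31.5% and 50.3% and *Defb1* 15.4% and 39.1% in upper HF-like wells, and *Defb1* was seen in 0 of 43 and 0 of 28 T cell-like wells, which allows shares of up to 6.98% and 10.7%.

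Wells high in both leading genes were nearly all upper HF-like. At least 10 transcripts of *Defb6* and of *Cst6* were present in 29 of 680 wells of the *Troy*-EGFP mice, 25 of them upper HF-like, and in 29 of 429 wells of the traced mice, 28 of them upper HF-like. Wells with at least 10 *Defb6* transcripts and fewer of *Cst6* numbered 21 and 25, and wells with the reverse pattern 2 and 4. Of the 25 *Defb6* wells of the traced mice, 13 belonged to the *Dct*-led cluster and 12 to the upper HF-like class. The removed *Lipi*-led cluster, whose marker lists gave it no name, held 3 further wells high in both genes. In mouse 4 its 13 wells had 5600 CPM of *Defb6* and 12600 CPM of *Cst6*, and in mouse 3 its 26 wells had 201 and 73.3 CPM.

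**Figure D3:**
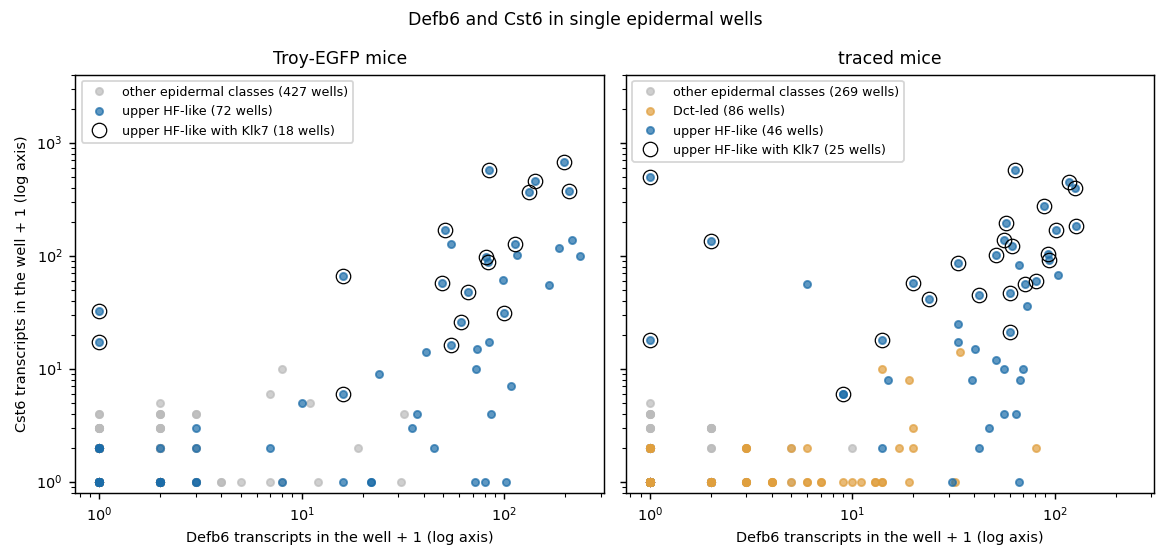
*Defb6* against *Cst6* transcripts in each epidermal well, both plus 1 and on log axes. Colors mark upper HF-like, *Dct*-led and other epidermal wells, and rings mark upper HF-like wells with a *Klk7* transcript. The wells drawn that were high in both genes were upper HF-like apart from 1 in the traced mice, and *Dct*-led wells lay along the *Defb6* axis. A further 4 such wells of the *Troy*-EGFP mice were in removed clusters and are not drawn.

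Upper HF-like wells were also described by whether a *Klk7* transcript was seen in them, which was the case in 18 of 72 and 25 of 46 wells. Every well with *Klk7*, 18 of 18 and 25 of 25, also had *Cst6*, which inhibits proteases of another class than KLK7, while *Cst6* was seen without *Klk7* in 26 and 19 wells. In mice 2, 3 and 4 of the *Troy*-EGFP line the *Cst6* level was 35500, 93700 and 61000 CPM in wells with *Klk7* and 413, 6230 and 3070 CPM in wells without it. In the traced mice it was 42900 and 29300 CPM with *Klk7* and 4700 and 4500 CPM without. The ranges did not overlap, and *Psapl1* and *Defb1* were likewise higher in the wells with *Klk7* in 5 of 5 mice.

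*Psapl1* had 478, 6600 and 3850 CPM in wells with *Klk7* and 0, 758 and 420 CPM in wells without it in the *Troy*-EGFP mice, and 2180 and 2030 against 168 and 190 CPM in the traced mice. *Defb1* had 1030, 340 and 387 against 172, 75.6 and 103 CPM, and then 1190 and 1050 against 251 and 261 CPM. *Defb6* behaved differently, with 20300, 29500 and 27100 CPM against 5390, 12800 and 8660 CPM in the *Troy*-EGFP mice but 11500 against 11700 and 17200 against 12900 CPM in the traced mice. These values describe wells sorted by 1 of the members and have no test. The wells with *Klk7* were not deeper throughout: their median was 2393 transcripts against 3311 in the *Troy*-EGFP mice and 4176 against 3736 in the traced mice. In mice 2 to 4 and the traced mice the smallest set was 4 wells, those with *Klk7* in mouse 3, and the medians also include the 2 wells of mouse 1, both without *Klk7*.

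**Figure D4:**
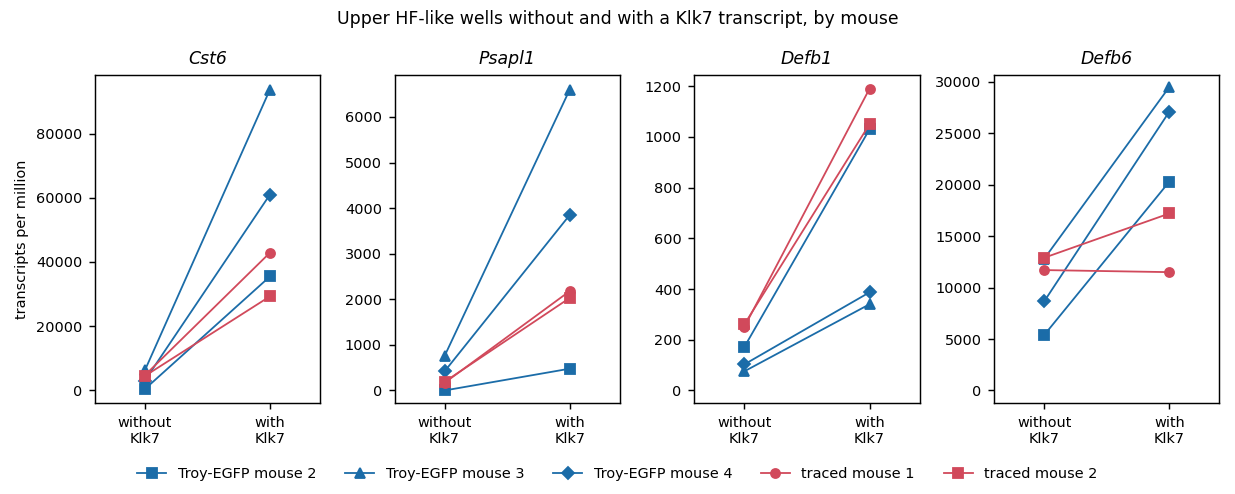
Levels of *Cst6*, *Psapl1*, *Defb1* and *Defb6* in CPM (vertical axes) in upper HF-like wells with and without a *Klk7* transcript; each line is 1 mouse. *Cst6*, *Psapl1* and *Defb1* were higher in wells with *Klk7* in 5 of 5 mice and *Defb6* in 4 of 5.

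Outside the upper follicle *Psapl1* was higher in committed than in undifferentiated interfollicular cells. It had 139, 150 and 172 CPM in IFE II-like cells of the *Troy*-EGFP mice and 93.2 and 58 CPM in those of the traced mice, against at most 19.5 CPM in any IFE I-like sum. The groups did not overlap, and the log2 fold change was 3.83 (SE 0.969, adjusted p = 0.0357, edgeR, higher in 3 of 3 mice) and 4.77 (SE 0.951, adjusted p = 0.00345, higher in 2 of 2 mice). The call in the *Troy*-EGFP mice was lost without mouse 3 (adjusted p = 0.407) or mouse 4 (adjusted p = 0.529). In the traced mice the IFE I-like sums held 1 and 0 *Psapl1* transcripts, and with a floor of 3 transcripts the difference was 3.59. *Psapl1* was 1 of 5 members tested in the *Troy*-EGFP mice and 1 of 6 in the traced mice that were called higher, beside 1.76% and 3.05% of all genes tested. At least 1 transcript was seen in 39.8% of IFE II-like and 3.11% of IFE I-like wells of the *Troy*-EGFP mice, at medians of 4280 and 3210 transcripts, and in 12.1% and 0.995% after thinning. *Cst6* had 19.8, 125 and 199 CPM in IFE II-like cells of the *Troy*-EGFP mice against 50.7, 30.3 and 50.7 CPM in IFE I-like cells, lower in mouse 2 and higher in mice 3 and 4, and a log2 difference of 1.55 (SE 0.652, adjusted p = 0.286, edgeR). With the mouse as a block the difference was 1.69 (adjusted p = 0.00389), and without mouse 2 it was 1.94 (adjusted p = 0.000794). In the traced mice *Cst6* had 112 and 57.9 CPM against 37.5 and 29.1 CPM, with no overlap and a difference of 1.36 (SE 0.427, adjusted p = 0.0825, edgeR).

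*Wfdc3* differed in pattern from the other members, with its transcripts in lower HF-like and *Aspn*-led cells, apart from 1 transcript in an IFE I-like well of each experiment. Lower HF-like cells had 93.4, 54.6 and 23.2 CPM in mice 2, 3 and 4 of the *Troy*-EGFP line, from 6, 5 and 4 transcripts, and 303 and 266 CPM in the traced mice. *Aspn*-led cells, which carried lower follicle markers without reaching the rule for a name, had 56.7, 69.7 and 77.6 CPM. In upper HF-like cells 0 of 72 and 0 of 46 wells had a transcript, which allows shares of up to 4.17% and 6.52%, against 7.14% and 40.6% of lower HF-like wells (3.04% and 21.8% after thinning). With a floor of 3 transcripts over the class, *Wfdc3* was at least 4.36-fold lower in upper than in lower HF-like cells of the *Troy*-EGFP mice and at least 17.1-fold lower in the traced mice. Against IFE I-like cells, which held 1 transcript in either experiment, the ratio was 133 in the traced mice (95% counting interval 23.4 to 5320) and 26.1 in the *Troy*-EGFP mice (4.02 to 1100). No test is given, since *Wfdc3* entered the fit of the traced mice through its lower HF-like sums alone and did not enter that of the *Troy*-EGFP mice.

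The same contrast of lower HF-like with IFE I-like cells in the traced mice also had *Psapl1* higher by 4.69 (SE 0.866, adjusted p = 0.000872, edgeR), *Defb6* by 1.46 (SE 0.333, adjusted p = 0.00879) and *Cst6* by 1.24 (SE 0.38, adjusted p = 0.0322). The levels behind the latter were low, 88.5 and 92 CPM of *Defb6* and 94.8 and 82.3 CPM of *Cst6* in lower HF-like cells against 30 and 29.1 CPM and 37.5 and 29.1 CPM in IFE I-like cells. *Psapl1* had 37.9 and 116 CPM in lower HF-like cells, from 6 and 24 transcripts, against 1 and 0 transcripts in IFE I-like cells. Its difference ran from 3 to 5.14 over the alternative runs. The share of T cell-like wells with *Cst6*, 7.14%, lay below that of lower HF-like wells, 18.8%, at fewer transcripts per well, and after thinning the shares were 4.13% and 6.97%. The levels in T cell-like cells were 111 and 35.1 CPM of *Cst6*, on either side of the lower HF-like values, and 73.8 and 0 CPM of *Defb6*, from at most 3 transcripts each. The *Cst6* call was lost with DESeq2 (adjusted p = 0.126), without the filter on low counts (adjusted p = 0.0546) and at the clustering resolution of 0.5 (adjusted p = 0.0506). With *Wfdc3* left aside these were 3 of 5 members, beside 8.01% of all genes called higher. In the *Troy*-EGFP mice 0 of 5 members were called by edgeR and 0 by DESeq2, 1 had an unadjusted p under 0.05, and 5.54% of all genes were called higher. That member was *Psapl1*, with 15.6, 98.3 and 40.5 CPM and a difference of 2.31 (SE 1.07, adjusted p = 0.281). With the mouse as a block it was 2.29 (adjusted p = 0.0239), and without mouse 2 it was 2.43 (adjusted p = 0.0135).

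A further cluster of the traced mice held a defensin, and its standing as a class depended on the clustering. It was led by *Dct*, *Vim* and *Sostdc1*, of which *Dct* was seen in 1 of the 45 wells of mouse 2 and in 0 of the 41 wells of mouse 1, and *Sostdc1* in 38 wells of either mouse. *Vim* was seen in 1 well of mouse 1 and in 2 wells of mouse 2, where 1 well held 64.5 of 66.5 transcripts. Of the upper follicle markers 7 of 7 lay above a log2 difference of 1 from the mean of the IFE-like and lower HF-like classes, *Krt79* at 4.31 and *Gata6* at 3.53 among them, with a floor of 3 transcripts for a class at 0, while 0 of 5 melanocyte markers had enough transcripts for the fit. Of 8 lower follicle markers 3 (*Nfatc1*, *Postn* and *Sox9*) also lay above 1 and 3 below -1, and of 6 sebaceous gland markers *Mgst1* lay above 1, at 3.54. *Krt79* had 1110 and 799 CPM there and 18600 and 18300 CPM in upper HF-like cells, and *Fst* the reverse, 319 and 762 against 62.2 and 35.2 CPM. At a clustering resolution of 0.5 the cluster did not form, and 85 of its 86 wells joined the 46 upper HF-like wells. The log2 fold changes of upper HF-like cells were then 6.56 for *Defb6*, 6.98 for *Cst6*, 4.84 for *Klk7*, 3.77 for *Defb1* and 4.15 for *Psapl1*. The values of this cluster are given with no test, since the markers took part in the clustering and the contrast was chosen after its values had been seen. *Defb6* had 1150 and 1180 CPM there and *Defb1* 268 and 329 CPM, above every interfollicular and lower HF-like sum of the traced mice and below every upper HF-like sum. Against the mean of the IFE-like classes and the lower HF-like class the log2 difference was 4.34 (SE 0.18) for *Defb6* and 3.18 (SE 0.433) for *Defb1*. *Cst6*, with 137 and 146 CPM, differed by 1.09 (SE 0.268), *Klk7* by 0.11 (SE 0.855) and *Psapl1* by -0.15 (SE 2.85). At least 1 *Defb6* transcript was seen in 51.2% of the 86 wells and *Defb1* in 46.5%, or 35.4% and 22.3% after thinning.

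*Lcn2*, which like *Wfdc3* had no count in EGFP+ bulk cells, was close to absent from the single cells of the traced mice, those in which it was analysed. Over 429 wells of the traced mice it had 3 transcripts, 1 each in a *Dct*-led, a lower HF-like and a T cell-like well. It was seen in 0 of 46 upper HF-like wells, which allows a share of up to 6.52% of wells with a transcript and sets no limit on cells that make it. These 3 transcripts did not place the *Lcn2* counts of the bulk libraries in a class.

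Other genes of the same families moved in both directions. A list of 106 relatives (antimicrobial proteins, WAP domain proteins, kallikreins and other serine proteases, serine protease inhibitors, cystatins, cathepsins and saposin partners) had 21 genes in the bulk fit, of which 3 were higher and 1 lower in EGFP+ than in EGFP- cells, with a median log2 difference of 0.58. Over all 4653 genes tested 2.99% were called higher and 4.06% lower at an adjusted p under 0.05, with a median of -0.04. *Serpinb2*, a serpin of keratinocytes, was higher by 2.24 (adjusted p = 0.00228, edgeR), *Spink5*, the inhibitor of epidermal kallikreins, by 1.92 (adjusted p = 0.0477) and the serine protease *Htra1* by 1.23 (adjusted p = 0.0436), and *Cstb*, a cytosolic cystatin, fell by 1.15 (adjusted p = 0.0265). In upper HF-like cells of the *Troy*-EGFP mice 2 of 16 relatives were higher and 2 lower, beside 4.49% and 1.72% of all genes tested, with a median of -0.14 beside -0.01. *Cstb* was higher by 2.51 (adjusted p = 0.000876, edgeR) and *Klk10*, at 0 in some classes, by at least 4.02 with a floor of 3 transcripts, and *Serpinb2* fell by 3.42 (adjusted p = 0.0225) and the cathepsin *Ctsl* by 1.96 (adjusted p = 0.0163).

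In upper HF-like cells of the traced mice 8 of 26 relatives were higher and 8 lower, beside 7.52% and 5.81% of all genes tested, with a median of 0.69 beside -0.03. The higher ones included *Pglyrp4*, which encodes a peptidoglycan recognition protein, by 4.28 (adjusted p = 3.52e-05, edgeR), *Cstb* by 3.47 (adjusted p = 6.16e-12) and *Ctsc*, a protease that activates others, by 2.96 (adjusted p = 0.00184). *Klk5*, a kallikrein that can activate KLK7, was at 0 in some classes and higher by at least 3.53. Among the lower ones *Serpinb2*, *Ctsl* and *Htra1* were at 0 in upper HF-like cells and differed on the log2 scale by -2.92, -2.89 and -2.57 or more, with a floor of 3 transcripts, and *Serpinb6a* fell by 2.45 (adjusted p = 0.00134). *Psap*, the prosaposin gene, fell by 1.96 (adjusted p = 0.00744). None of the WAP domain relatives had enough counts for a test in bulk or in either upper HF-like contrast.

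Across the 25 sums of mouse and class, the genes most like each member were found by Pearson's r of log2(CPM + 20). The points share libraries and classes, so r is a description. *Krt79*, a keratin of the upper follicle, was most like both *Defb6* (r = 0.945) and *Cst6* (r = 0.945), and these members were like each other (r = 0.941). *Reep5* (r = 0.913) was the next for *Defb6* and *Krt23* (r = 0.929) for *Cst6*. *Klk7* was most like genes of the cornified envelope, *Sprr1a* (r = 0.922) and *Ivl* (r = 0.917), and then *Slc46a2* (r = 0.907). *Defb1* was most like *Acsl4* (r = 0.911), *Sox7* (r = 0.891) and *Aadac* (r = 0.839). *Psapl1* had lower values, with *Atp6v0a4* (r = 0.843), *Pgap1* (r = 0.836) and *Cldn4* (r = 0.835). *Wfdc3* was most like *Gfra1* (r = 0.925), *Tgm5* (r = 0.902) and *Ctgf* (r = 0.901), the last of them on the lower follicle marker list. Of the 6 members, *Defb6* and *Cst6* alone had another member among their 3 nearest genes.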

How the data were processed

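The data were SORT-seq and bulk CEL-seq mRNA libraries of sorted mouse epidermal cells. For the bulk libraries the authors deposited counts per gene, without normalization. The deposited single-cell values are estimated counts of transcripts in each well, in which the number of molecular barcodes seen was corrected for repeated draws. All of them turn back into barcode numbers within 0.01 of a whole number when 4096 barcodes are possible. The extract protocol per the labels names a shorter barcode, so this correction was read from the values. The submitters' processing notes name BWA 0.6.2-r126 and the builds mm10, GRCm38 and hg19 (the last for bulk). Estimates were used as deposited and rounded after summing.

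Counts and summed transcripts were tested with edgeR 4.0.16 (R 4.3.3). Genes were filtered with filterByExpr and libraries scaled by TMM, and the quasi-likelihood test was adjusted by Benjamini-Hochberg over all genes tested and called at 0.05, with a mean for each population or class and no block. Replicates were mice, 2 in bulk, 3 and 2 in the class sums. Wells were clustered per experiment with Seurat 5.3.0 and sctransform 0.4.2 (3000 variable genes without the members and their relatives, 20 components, resolution 0.8). A cluster was named from a marker list with at least 3 markers raised by a log2 fold of 1, at least 1 of them among its top 10 genes; this rule, and the removal of clusters, were set after clusters had been seen. No doublet caller was run, since 1 cell was sorted per well. Shares have exact binomial intervals at 95% and the limit for 0 uses 3 counts; intervals cover counting error only. Thinning kept 1000 transcripts per well by calculation.

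The members and lists were chosen with earlier results of these data known. Named genes were the members; of their relatives, up to 4 called genes with the largest difference in each direction; and, for each member, the 3 genes of highest correlation. *Psap* was named outside this rule, after its value was seen. Mouse numbers pair populations and classes, which share an animal; deviations of a mouse from the population means correlated by 0.0805 (viable with EGFP+), 0.0862 (viable with EGFP-) and 0.0483 (EGFP+ with EGFP-). On simulated data with 200 genes changed by a log2 fold of 2, the fit recovered 83.5% of them in bulk (4266 genes, 3.47% of calls false), 64% in the *Troy*-EGFP upper HF-like contrast (1913 genes, 5.88%) and 61.5% in the traced one (3875 genes, 3.91%). The alternatives were DESeq2 1.42.0, no filter, the mouse as a block, other minimums of transcripts and cells, another resolution and leaving out each library or mouse. The contrasts of IFE II-like, lower HF-like and *Dct*-led cells in traced mice and the joint fit were added after the data were seen. Protein sequences were not used here.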

Additional observations from a re-analysis of the deposited data

Results flagged for a closer look

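*Defb1* over all epidermal wells of the 4 *Troy*-EGFP mice was 12.4, 157, 22.1 and 35.4 CPM in mice 1 to 4. The gap between mouse 2 and the next mouse was 0.841 of the whole range, above the critical value of Dixon's test for 4 samples at 95%. Of 6 members looked at in this way it was the only one past that value, and *Klk7*, also highest in mouse 2 (241 CPM against 0, 42.7 and 30.7 CPM), came to 0.823. A flag of this kind arises by chance in about 5% of groups. Mouse 2 had fewer transcripts per well than mice 3 and 4, a median of 2232 against 3098 and 3022, and 14 of its 129 wells were upper HF-like; their part in the value was not tested.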

How the results depend on the processing

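With the mouse as a block, counts of called genes in the *Troy*-EGFP mice were 306 in place of 148 for upper HF-like cells, 283 in place of 93 for IFE II-like and 416 in place of 188 for lower HF-like cells; besides the *Cst6* and *Psapl1* values given in the report, the block changed no call of a member. Without the filter on low counts the first pair of these were 239 and 164. Leaving out 1 mouse gave 20 to 374, 0 to 400 and 21 to 446 genes, the lowest without mouse 4; the count of 0 by edgeR, without mouse 3 or mouse 4, stood beside 179 and 125 genes at an unadjusted p under 0.05, and no other tool was run there. In bulk, 328 genes were called, 158 with DESeq2 and 131 to 751 with 1 library left out, the lowest without EGFP+ of mouse 1 and the highest without EGFP- of mouse 2. In the traced mice DESeq2 called 396 genes where edgeR called 599 for upper HF-like, 144 where it called 256 for IFE II-like, 365 where it called 627 for lower HF-like and 161 where it called 257 for *Dct*-led cells, and a clustering resolution of 0.5 gave 327 for upper HF-like cells, which then held 85 of the 86 *Dct*-led wells. Leaving out a traced mouse left no spread to test, and there the *Defb1* difference of lower HF-like from IFE I-like cells turned from 1.28 to -1.81 without mouse 2 and was 3.48 without mouse 1. The cause of these shifts was not tested. *Klk7* in IFE II-like cells of the traced mice was called only without the filter (2.70, adjusted p = 0.00062), from 1 well, and *Cst6* in IFE II-like cells of the *Troy*-EGFP mice also with wells of at least 2000 transcripts (2.24, adjusted p = 0.0132). The 5 members found in upper HF-like cells kept their direction in each alternative run. Depth limits these data to the more abundant genes: *Wfdc3* in bulk and *Lcn2* in single cells rest on 3 counts each.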

Other observations

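Removed *Lipi*-led wells of mouse 4 in the *Troy*-EGFP line had *Psapl1* at 355 CPM beside their *Defb6* and *Cst6*, from 9 transcripts in 13 wells. *Aspn*-led cells were uneven for the members: *Defb6* had 995, 69.7 and 252 CPM in mice 2, 3 and 4 and *Psapl1* had 0, 314 and 97 CPM. Single wells carried much of this: 1 of the 16 wells of mouse 2 held 31.1 of 35.1 *Defb6* transcripts, and without it the level was 130 CPM. Without the highest well of mouse 4 *Defb6* was 79.7 CPM, and without that of mouse 3 *Psapl1* was 83 CPM.

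Pairs of members were also counted in upper HF-like wells. In the traced mice every well with *Defb1*, 30 of 30, also had *Cst6*, and 28 of them had *Defb6*. In the *Troy*-EGFP mice all 23 wells with *Defb1* had *Defb6* and 21 of them had *Cst6*. Deeper wells show more pairs, and no test was made.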
